A study of Mus musculus with 6 samples.

Results

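Desmosomal cadherins are the adhesion receptors of desmosomes, the junctions that tie the keratin filaments of neighbouring epithelial cells together. The mouse genes examined were the desmogleins Dsg1a, Dsg1b, Dsg1c, Dsg2, Dsg3 and Dsg4 and the desmocollins Dsc1, Dsc2 and Dsc3, chosen by their gene symbols. They were 9 of the 24982 genes listed in each library. RNA sequencing compared 2 keratinocyte lines from the neonatal skin of C57BL/6 mice, both untreated, with 3 libraries for each line. The KSFM-Ca2+ line was derived and kept in a keratinocyte serum-free medium supplied without calcium chloride. The DKSFM line was obtained from the KSFM-Ca2+ cells by adapting them to DKSFM, a defined serum-free medium with more calcium.

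Both lines had passed through selection in culture, since the KSFM-Ca2+ cells grew out from the few cells that survived and the DKSFM cells descended from them. The effects of medium, calcium and culture history cannot be told apart in this design. The labels do not say whether replicates were separate cultures, so the p-values measure only the spread between these libraries, which may be technical. KSFM-Ca2+ replicate 3 and all 3 DKSFM libraries were marked as combined, a term the labels do not explain, whereas KSFM-Ca2+ replicates 1 and 2 were not. Among the cadherins and the plaque genes, results that lose their call with the combined libraries alone are given together with that value. Summed coverage was 1601676, 1238411 and 1057750 in KSFM-Ca2+ replicates 1 to 3 and 1174348, 1239438 and 1170675 in DKSFM replicates 1 to 3.

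The extracellular parts of desmogleins and desmocollins bind those of the next cell in a calcium-dependent manner, and their tails bind plakoglobin and plakophilins, which connect through desmoplakin to keratins. In stratified epidermis the isoforms are layered. Dsg3 and Dsc3 predominate in the basal and lower layers, Dsg1 and Dsc1 in the suprabasal layers, and Dsg2 and Dsc2 are the widespread isoforms that also serve simple epithelia and heart. Dsg4 belongs to the hair shaft and the uppermost epidermis, and in the mouse Dsg1 exists as the copies Dsg1a, Dsg1b and Dsg1c. Here Dsg2, Dsg3, Dsc2 and Dsc3 were counted as basal members, and the Dsg1 copies and Dsc1 as suprabasal members.

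The label of keratinocyte was checked against marker genes. Krt14, the basal keratin, had a normalized coverage of 11965 ± 167 (SD, n = 3) in KSFM-Ca2+ and 29742 ± 1502 in DKSFM, above nearly every other gene. The fibroblast collagens Col1a1, Col1a2 and Col3a1, with Lum and Dcn, were listed at 0 in all 6 libraries, as were Dct and Tyr of melanocytes, Cdh5 of endothelium and Cd3e of T cells. Other genes of these lists were present at low levels, with Pdgfra at 1.11 ± 0.207 in KSFM-Ca2+ and 2.22 ± 0.119 in DKSFM, Pecam1 at 2.77 ± 0.250 and 7.59 ± 0.608, and Pmel at 0.593 ± 0.182 and 0.344 ± 0.146 (SD, n = 3 each). Cd74 was at 1.53 ± 0.332 in KSFM-Ca2+ (SD, n = 3) and listed at 0 in DKSFM. Normalized coverage is the mean number of reads over each base of a gene, scaled between libraries. That the deposited values are per base was read from the values and from how the files are named, since their computation is not described. Levels are compared between genes, summed and ordered on that reading. In bulk RNA, fewer cells carrying a transcript and less transcript per cell cannot be told apart.

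The cadherin profile differed between the lines in both directions. The suprabasal genes Dsg1a, Dsg1b and Dsc1 were higher in DKSFM, the widespread isoforms Dsg2 and Dsc2 were higher in KSFM-Ca2+, Dsc3 rose by less than 2-fold in DKSFM and Dsg3 overlapped between the lines. A gene was tested if its normalized coverage reached 0.5 in at least 3 libraries, and it was called if limma gave an adjusted p under 0.01 and a change of at least 2-fold. Of the 9 members, 7 were tested, and Dsg1c and Dsg4 were not. Dsg1a, Dsg1b and Dsc1 passed the filter only through the DKSFM libraries, where they were high, so a filter requiring that coverage in every library leaves them untested and the count of members called higher in DKSFM at 0.

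Among the 7 tested members, 3 were called higher in DKSFM, against 13.3% of the 12450 genes tested, and 2 were called higher in KSFM-Ca2+, against 10.5%. With the combined libraries alone these counts were 2 and 1. At any fold, 4 members passed the adjusted p of 0.01 in the direction of DKSFM, where 35.6% of tested genes did, and 2 in the direction of KSFM-Ca2+, where 36.8% did. Both counts toward DKSFM hold Dsg1a, Dsg1b and Dsc1, which passed the filter only through the DKSFM libraries, so these counts support no direction. The libraries of the lines did not overlap for 6 members, and 83.1% of tested genes likewise showed no overlap. Separation by itself was therefore common among the genes of these lines, and the sizes and directions of the changes are given for each member.

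**Figure D1:**
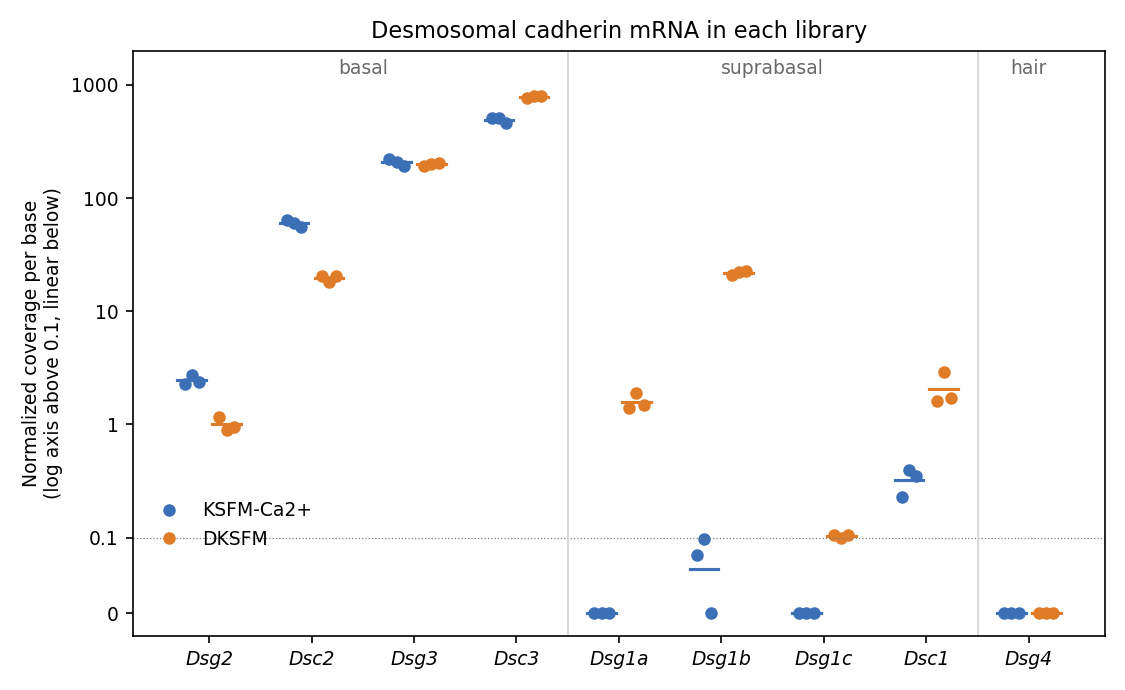
Normalized coverage per base of each desmosomal cadherin, with 1 point per library and a bar at the mean of the 3 libraries of each line (vertical axis logarithmic above 0.1 and linear below). Dsc3 was the most abundant member in both lines, Dsg1b went from 0.0984 or less in KSFM-Ca2+ to between 20.9 and 22.5 in DKSFM, and Dsc2 fell from at least 55.8 to at most 20.5.

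Dsc3, the desmocollin of the basal and lower layers, was the most abundant desmosomal cadherin in every library. Its normalized coverage was 514, 504 and 460.3 in the KSFM-Ca2+ libraries and 761, 800.3 and 796 in the DKSFM libraries. All 3 DKSFM libraries lay above all 3 KSFM-Ca2+ libraries. The mean rose from 493 ± 28.6 to 785 ± 21.6 (SD, n = 3 each), a log2 fold change of 0.67 (SE 0.04, 95% interval 0.57 to 0.78; limma adjusted p = 2.18e-06). This is 1.60-fold, short of the 2-fold limit for a call. By level, Dsc3 stood above 96.7% of tested genes in KSFM-Ca2+ and above 98.2% in DKSFM.

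Dsg3, the basal desmoglein and the target antigen of pemphigus vulgaris, was the second most abundant member in both lines. Its normalized coverage was 219, 208 and 192 in KSFM-Ca2+ and 192, 201 and 202 in DKSFM. The ranges of the lines overlapped, and the means were 207 ± 13.7 and 198 ± 5.65 (SD, n = 3 each). The log2 fold change was -0.057 (SE 0.049, 95% interval -0.17 to 0.058; limma adjusted p = 0.314), with the opposite sign under quantile normalization (0.011) and in the combined libraries alone (0.045). The interval covers changes of less than 2-fold in either direction. Dsg3 exceeded 90.6% of tested genes in KSFM-Ca2+ and 90.8% in DKSFM.

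Dsc2, the desmocollin shared by simple and stratified epithelia, fell in DKSFM. It was measured at 64.5, 60 and 55.8 in KSFM-Ca2+ and at 20.4, 18 and 20.5 in DKSFM. Each DKSFM library was below each KSFM-Ca2+ library by a wide margin relative to the spread within a line. The mean went from 60.1 ± 4.37 to 19.6 ± 1.40 (SD, n = 3 each), and the log2 fold change was -1.61 (SE 0.07, 95% interval -1.77 to -1.45; limma adjusted p = 1.99e-07). Expression was thus 3.05-fold higher in KSFM-Ca2+. Dsc2 exceeded 70.5% of tested genes in KSFM-Ca2+ and 43.9% in DKSFM.

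Dsg2, the widespread desmoglein, was scarce in both lines and lower in DKSFM. Its normalized coverage was 2.30, 2.76 and 2.35 in KSFM-Ca2+ and 1.17, 0.901 and 0.954 in DKSFM, without overlap. The means were 2.47 ± 0.250 and 1.01 ± 0.142 (SD, n = 3 each), a log2 fold change of -1.22 (SE 0.15, 95% interval -1.57 to -0.86; limma adjusted p = 0.000112). The direction was the same in all alternatives tried, but the call depended on the settings. With 0.5 or 1 added before the logarithm in place of 0.1 the log2 fold change was -0.98 or -0.79, short of 2-fold, and with the combined libraries alone it was -1.15 (limma adjusted p = 0.0117). Tested against a 2-fold change rather than against no change, Dsg2 had a limma adjusted p of 0.472, the highest over the alternatives, of which the lowest was 3.56e-05.

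The paired isoforms therefore moved differently within the basal group. The ratio of Dsc3 to Dsc2 was 7.96, 8.40 and 8.25 in the KSFM-Ca2+ libraries and 37.3, 44.4 and 38.9 in the DKSFM libraries. The ratio of Dsg3 to Dsg2 was 95.5, 75.5 and 81.6 in KSFM-Ca2+ and 164, 223 and 212 in DKSFM. Neither ratio overlapped between the lines. The means changed 4.90-fold for the desmocollin pair and 2.37-fold for the desmoglein pair. Dsc2 and Dsg2 fell in both pairs, whereas Dsc3 rose and the Dsg3 libraries overlapped.

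Dsg1b was the suprabasal member with the largest difference in coverage between the lines. The deposited coverage was 0.1, 0.1 and 0 in the KSFM-Ca2+ libraries and 19.7, 22.1 and 21.2 in the DKSFM libraries. Coverage is written in steps of 0.1, so the KSFM-Ca2+ values are at the lowest step or at 0, while the DKSFM libraries agree closely. The normalized DKSFM mean was 21.8 ± 0.799 (SD, n = 3), above 46.5% of tested genes. Set against the highest coverage that would be written as 0.1 (0.15, or 0.177 after scaling in the library where it weighs most), the lowest DKSFM library was at least 118-fold higher. The fitted log2 fold change of 7.17 (SE 0.25; limma adjusted p = 5.88e-08) depends on the 0.1 added before the logarithm.

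The other Dsg1 copies were much scarcer. Dsg1a was listed at 0 throughout KSFM-Ca2+ and at 1.3, 1.9 and 1.4 in DKSFM, and it was called higher in DKSFM (limma adjusted p = 1.57e-06). No fold is given for Dsg1a, since a line was listed at 0. Dsg1c was listed at 0 in each KSFM-Ca2+ library and at 0.1 in each DKSFM library, below the filter. Dsg1b made up 93.4%, 91.7% and 93.4% of the summed Dsg1 coverage in DKSFM replicates 1 to 3.

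These shares are uncertain because the copies resemble each other. Windows of 85 bases were compared between the protein-coding GENCODE transcripts of the members. Of these windows, 27.4% for Dsg1a, 36.4% for Dsg1b and 17.2% for Dsg1c occur in another Dsg1 copy. The other members share no window with each other or with the Dsg1 copies. The study used Salmon, which divides reads shared between transcripts by estimation, but how the coverage values treated such reads is not given in the sources used here. The summed coverage of the Dsg1 copies was 0.0766, 0.0984 and 0 in KSFM-Ca2+ and 22.4, 24.1 and 24.1 in DKSFM. Fitted as 1 gene, an alternative added after the data were seen, the sum had a log2 fold change of 7.28 (SE 0.25; limma adjusted p = 5.31e-08), which depends on the 0.1 added before the logarithm, and like the single copies it passed the filter only through the DKSFM libraries. The sum does not cover shared reads that were dropped or counted more than once, and the part of shared reads in the values was not tested.

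Dsc1, the desmocollin of the suprabasal layers, was listed at 0.3, 0.4 and 0.3 in KSFM-Ca2+ and at 1.5, 2.9 and 1.6 in DKSFM. The lines did not overlap, and DKSFM replicate 2 stood above the other DKSFM libraries. The normalized means were 0.326 ± 0.0854 and 2.06 ± 0.727 (SD, n = 3 each), with a log2 fold change of 2.32 (SE 0.28, 95% interval 1.68 to 2.96; limma adjusted p = 8.13e-05). In the combined libraries alone the log2 fold change was 2.19 with a limma adjusted p of 0.0143, which misses the limit for a call and was the highest over the alternatives, the lowest being 7.24e-05. Dsc1 remained a low transcript, above 3.96% of tested genes in KSFM-Ca2+ and 13.1% in DKSFM.

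Dsg4, the desmoglein of the hair shaft, was listed at 0 in all 6 libraries. None of 7 hair keratins, of the shaft or, for Krt71 and Krt73, of the inner root sheath, passed the filter either. Their summed normalized coverage was 0.306, 0.295 and 0.471 in KSFM-Ca2+ and 0.638, 0.50 and 0.742 in DKSFM, with no gene above 0.318 in any library.

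The order of the members by level was Dsc3, Dsg3, Dsc2, Dsg2 and Dsc1 in KSFM-Ca2+, and each of these was separated from the next by the ranges over its 3 libraries. Dsg1b, Dsg1a, Dsg1c and Dsg4 were at or near 0 there and were not separated from one another. In DKSFM the order was Dsc3, Dsg3, Dsg1b, Dsc2, Dsc1, Dsg1a, Dsg2, Dsg1c and Dsg4. Dsc1 and Dsg1a overlapped, and every other neighbouring pair in that order was separated. Dsg1b, the lowest member above 0 in KSFM-Ca2+, thus ranked just above Dsc2 in DKSFM, with 20.9 in its lowest library against 20.5 in the highest library for Dsc2. Dsg2 dropped below Dsc1 and Dsg1a.

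Summed over the 9 genes, desmosomal cadherin coverage was 800.4, 776 and 711 in KSFM-Ca2+ and 998, 1047 and 1045 in DKSFM, 1.35-fold higher on average and without overlap. Dsc3 carried most of it. Its share was 64.7% ± 0.406 of the sum in KSFM-Ca2+ and 76.3% ± 0.159 in DKSFM (SD, n = 3 each). The share of Dsg3 went from 27.1% ± 0.288 to 19.3% ± 0.0947 although its own level overlapped between the lines. The share of Dsc2 went from 7.88% ± 0.166 to 1.91% ± 0.168.

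The balance of basal to suprabasal members moved toward the suprabasal side, from a near absence of suprabasal transcripts. The summed suprabasal coverage was 0.306, 0.492 and 0.353 in KSFM-Ca2+ and 24.0, 27.0 and 25.8 in DKSFM. As a share of all desmosomal cadherin coverage this was 0.0383%, 0.0634% and 0.0497% in KSFM-Ca2+ and 2.41%, 2.58% and 2.46% in DKSFM. The listed suprabasal values were also placed at the edge of their rounding step, with the basal values kept as listed. The KSFM-Ca2+ share then stayed at 0.0888% or less and the DKSFM share at 2.39% or more. The ratio of basal to suprabasal coverage was 2612, 1575 and 2012 in KSFM-Ca2+ and 40.5, 37.8 and 39.6 in DKSFM.

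The size of the shift depended on the Dsg1 copies. Between the lines the ratio changed by -5.69 on the log2 scale, and by -2.25 with Dsc1 alone as the suprabasal member. The basal sum itself was higher in DKSFM, at 1004 ± 26.3 against 762 ± 46.2 (SD, n = 3 each), and Dsc3 was the basal member that rose. Basal members made up the bulk of the coverage in both lines, and Dsg3 alone exceeded the summed Dsg1 copies 8.43-fold ± 0.115 in DKSFM (SD, n = 3). These sums and ratios are descriptions and were not tested.

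**Figure D2:**
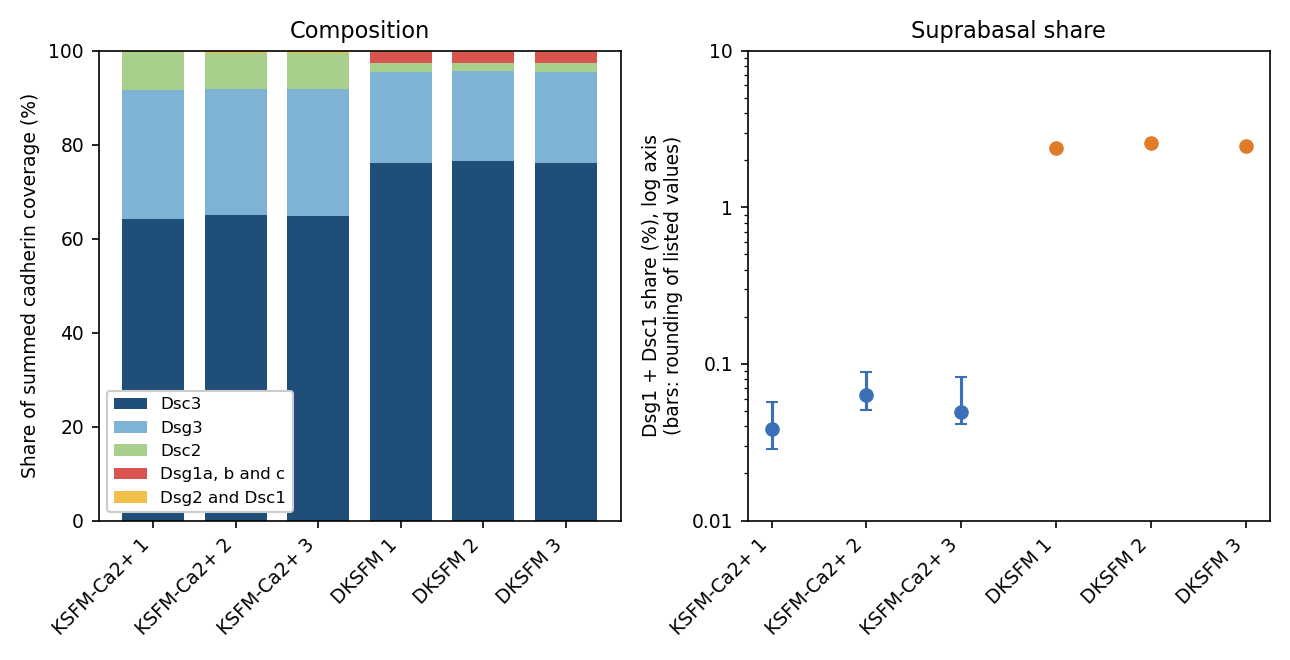
Left, the share of each member in the summed coverage of the 9 desmosomal cadherins in each library, in percent. Right, the share of the suprabasal members (Dsg1 copies and Dsc1) on a logarithmic axis, with bars for the rounding of the listed suprabasal values. The Dsc3 share was larger and the Dsc2 share smaller in every DKSFM library, and the suprabasal share was at most 0.0634% in KSFM-Ca2+ and at least 2.41% in DKSFM.

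Desmocollins outweighed desmogleins in both lines. The desmocollin to desmoglein ratio was 2.61, 2.68 and 2.66 in KSFM-Ca2+ and 3.63, 3.64 and 3.60 in DKSFM, a difference far larger than the spread within a line. The desmoglein sum was 209 ± 13.7 in KSFM-Ca2+ and 223 ± 6.46 in DKSFM, and the desmocollin sum 553 ± 32.6 and 807 ± 21.3 (SD, n = 3 each). The ratio of Dsc3 to Dsg3, the leading pair, was 2.39 ± 0.0402 in KSFM-Ca2+ and 3.96 ± 0.0268 in DKSFM (SD, n = 3 each).

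All 9 members lie in a single cluster on chromosome 18, from 19960930 to 20604526 in the GRCm38 build, in the order Dsc3, Dsc2, Dsc1, Dsg1c, Dsg1a, Dsg1b, Dsg4, Dsg3 and Dsg2. No other tested gene lies within it. Members that moved in opposite directions were neighbours, since Dsc3 and Dsc1 were higher in DKSFM and Dsc2, between them, was higher in KSFM-Ca2+. The Dsg1 copies, listed at or near 0 in KSFM-Ca2+, sit in the middle of the cluster, and Dsg2, at its end, was lower in DKSFM.

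Most genes around the cluster were lower in DKSFM. The 5 nearest tested genes on each side had a median log2 fold change of -0.48. The 330 tested genes of chromosome 18 other than the members, neighbours included, had a median of -0.29, beside 0.00 over all tested genes. Of the 10 neighbours 7 passed the limma threshold toward KSFM-Ca2+, against 36.8% of all tested genes, with Nol4 and Dtna called. Nol4, listed at 0 in DKSFM, passed the filter only through the KSFM-Ca2+ libraries, so its call supports no direction. Of the 330 genes 44 were called higher in KSFM-Ca2+ and 23 higher in DKSFM, against 10.5% and 13.3% of all tested genes. The nearest tested gene before the cluster, Kctd1, at a distance of 4809 kb, was higher in DKSFM (log2 fold change 1.71, SE 0.07; limma adjusted p = 1.04e-07). The nearest after it, Trappc8, at 213 kb, was lower by less than 2-fold (log2 fold change -0.62, SE 0.04; limma adjusted p = 1.85e-06).

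**Figure D3:**
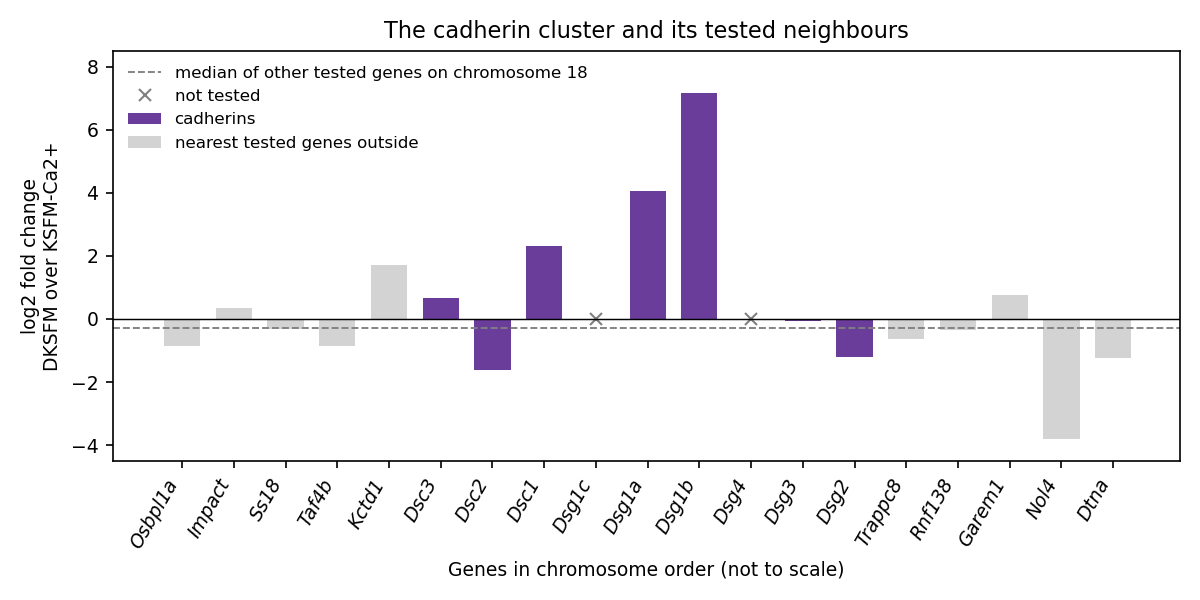
Log2 fold change (DKSFM over KSFM-Ca2+) of the desmosomal cadherins and of the 5 nearest tested genes on each side, in chromosome order and not to scale. Crosses mark members that were not tested. The dashed line is the median of -0.29 over the tested genes of chromosome 18 other than the members. The bars of Dsg1a, of Dsg1b and of Nol4, a gene listed at 0 in DKSFM, depend on the 0.1 added before the logarithm. Members of the cluster lie on both sides of 0.

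Other genes with the most similar profile were found for each tested member as the smallest distance in log2 coverage over the 6 libraries. They were Rnh1 and Sem1 for Dsc3 (distances 0.22 and 0.22), Pts and Snrpa for Dsg3 (0.08 and 0.11), and Npdc1 and Dixdc1 for Dsc2 (0.21 and 0.26). For Dsg2 they were Hoxa7 and Ptar1 (0.33 and 0.37), for Dsc1 Teddm3 and Egr2 (0.52 and 0.72), and for Dsg1a Lpar4 and Tmprss11g (0.10 and 0.13). Dsg1b had no profile as near, with Wisp1 and Krt18, a keratin of simple epithelia, at distances of 1.02 and 1.02. No member was among the closest genes of another.

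The cytoplasmic plaque genes, which the cadherin tails depend on for their link to keratin, were all higher in DKSFM. All 9 plaque and associated genes passed the limma threshold in that direction, against 35.6% of all tested genes, and 6 were called, against 13.3%, with a median log2 fold change of 1.13 beside 0.00 over all tested genes. Desmoplakin, Dsp, which links the plaque to keratins, went from 142, 137 and 132 in KSFM-Ca2+ to 329.8, 328 and 336 in DKSFM, with a log2 fold change of 1.27 (SE 0.03; limma adjusted p = 1.25e-08). Dsp is among the adhesion genes that the study chose on these samples, so it is not independent evidence of a direction.

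Plakoglobin, Jup, which binds both classes of cadherin, changed by 0.64 on the log2 scale (SE 0.05; limma adjusted p = 5.66e-06), close to the 0.67 of Dsc3. The log2 fold changes of the plakophilins were 1.07 for Pkp1, 0.85 for Pkp2, 0.33 for Pkp3 and 1.78 for the related Pkp4. Those of the cornified envelope plakins were 1.53 for Ppl and 1.13 for Evpl, and that of Perp, a desmosomal membrane protein and the most abundant gene of the list, was 1.62. Jup, Pkp2 and Pkp3 were short of 2-fold. In contrast to the plaque genes, the cadherins ranged from -1.61 for Dsc2 to the Dsg1 copies absent or nearly so from KSFM-Ca2+.

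**Figure D4:**
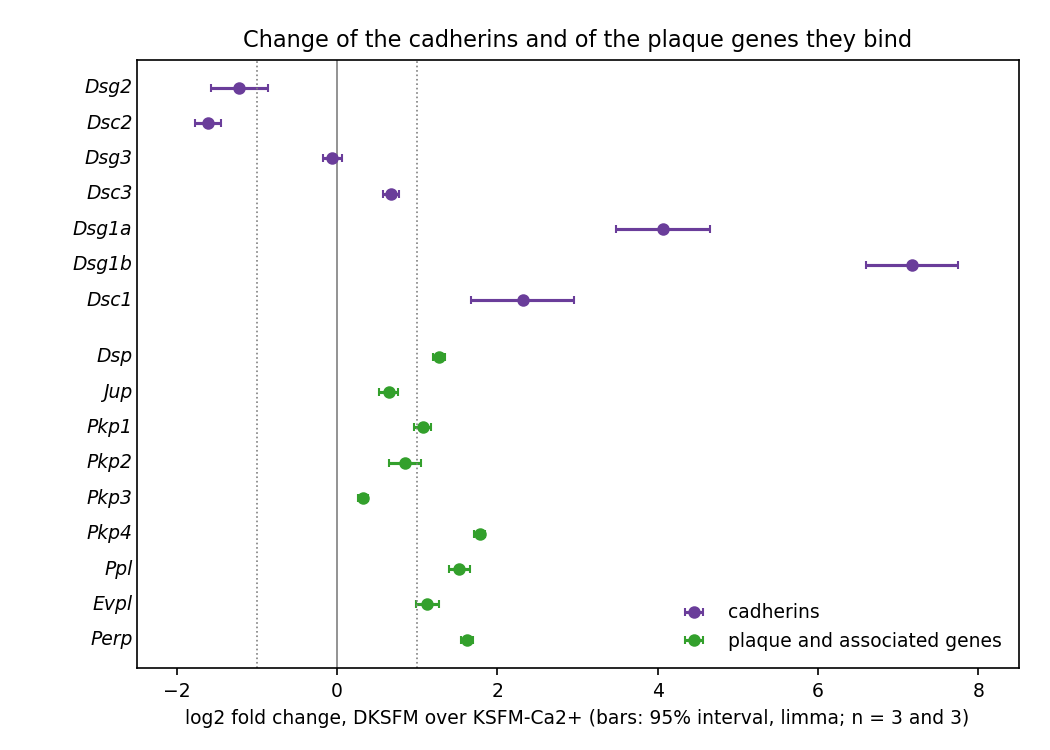
Log2 fold change (DKSFM over KSFM-Ca2+) of the 7 tested cadherins and of the 9 plaque and associated genes, with 95% intervals from limma (n = 3 libraries per line). Dotted lines mark 2-fold, and the values of Dsg1a and Dsg1b depend on the 0.1 added before the logarithm. The plaque genes lie between 0.33 and 1.78, whereas the cadherins fall on both sides of 0.

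The classical cadherins of adherens junctions, the other cadherin junction of keratinocytes, showed no called change. Of 7 adherens junction genes, 6 were tested and 5 passed the limma threshold toward KSFM-Ca2+, against 36.8% of all tested genes and all by less than 2-fold, with a median log2 fold change of -0.19. E-cadherin, Cdh1, was at 159 ± 3.0 in KSFM-Ca2+ and 146 ± 2.99 in DKSFM (SD, n = 3 each; log2 fold change -0.13, limma adjusted p = 0.00404). By qPCR normalized to Gapdh the study reports increased E-cadherin expression in the cells adapted to DKSFM, the opposite direction. Coverage here was scaled over all genes, so the 2 measures are unlike. From immunofluorescence for E-cadherin and ZO-1, the study also reports that the adapted cells formed adherens and tight junctions. Ctnnb1, the most abundant gene of the list, had a log2 fold change of -0.19. The summed desmosomal cadherins thus exceeded E-cadherin in both lines.

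Corneodesmosomes are the modified desmosomes of the cornified layer, in which Dsg1 and Dsc1 are joined by corneodesmosin and are later cleaved by kallikreins. All 7 genes of this list were tested, and 4 were called higher in DKSFM and 1 higher in KSFM-Ca2+, against 13.3% and 10.5% of all tested genes, with a median log2 fold change of 3.48. Of the called genes, Klk5, Klk7 and Klk14 passed the filter only through the DKSFM libraries, so their count and the median support no direction. Corneodesmosin, Cdsn, rose from 14.7 ± 1.33 to 165 ± 10.2 (SD, n = 3 each; log2 fold change 3.48, limma adjusted p = 4.69e-09), and it too is among the genes the study chose on these samples. Klk14 and Klk5 were listed at 0 in every KSFM-Ca2+ library, and Klk14 reached 87.4, 109.6 and 83.5 in DKSFM. Spink5, the inhibitor of these proteases, was lower in DKSFM (log2 fold change -1.40, limma adjusted p = 2.74e-07), and St14, the most abundant gene of the list in KSFM-Ca2+, was at -0.77. In DKSFM Cdsn and Klk14 exceeded St14.

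Markers of the epidermal layers were compared beside the cadherins. Of 10 suprabasal markers 8 were tested and 5 were called higher in DKSFM, against 13.3% of all tested genes, with a median log2 fold change of 2.71. At any fold 6 passed the limma threshold toward DKSFM, against 35.6% of all tested genes. Toward KSFM-Ca2+ 1 marker passed, by less than 2-fold, against 36.8%. Their summed coverage was 703, 675 and 689 in KSFM-Ca2+ and 5265, 5418 and 5210.3 in DKSFM, mostly from Dmkn, which like Tgm1 is among the genes the study chose on these samples. The keratins that define the spinous layer were low in both lines. Krt10 was at 3.49 ± 0.145 in KSFM-Ca2+ and 5.01 ± 0.957 in DKSFM (SD, n = 3 each), without overlap (log2 fold change 0.49, limma adjusted p = 0.00949). Krt1 was listed at 0 in KSFM-Ca2+ and between 0.2 and 0.8 in DKSFM, below the filter. DKSFM replicate 2, the highest library for Dsc1, was also the highest for Krtdap (202 against 128 and 122 in DKSFM replicates 1 and 3). It was the highest for Krt10, Tgm1 and Calml3 as well, but not for Lor or Ivl. The marker that passed toward KSFM-Ca2+ was Ivl (log2 fold change -0.66, limma adjusted p = 3.79e-06). Calml3, listed at 0 in KSFM-Ca2+, had the largest fitted change. Calml3 and Lor passed the filter only through the DKSFM libraries, so the counts and the median of the list support no direction.

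All 7 basal markers were tested, with 3 called higher in DKSFM, against 13.3% of all tested genes, and a median log2 fold change of 0.72. At any fold 6 passed the limma threshold toward DKSFM, against 35.6% of all tested genes. Toward KSFM-Ca2+ 1 passed, by less than 2-fold (Itgb4, -0.74), against 36.8%. Their summed coverage was 18643, 18866 and 18569 in KSFM-Ca2+ and 44884, 40933 and 45158 in DKSFM, led by Krt14, and Krt15 had the largest change at 4.88. Both layer lists held genes that moved each way, and their sums were carried by Krt14 and Krt5 and by Dmkn. The part of a change in the mix of cells in the cadherin values was not tested.

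Dsg2 and Dsc2 are also the isoforms of simple epithelia, whose markers did not move as a group. Of 6 such genes 5 were tested, 3 called higher in DKSFM and 2 higher in KSFM-Ca2+, against 13.3% and 10.5% of all tested genes. The 3 higher in DKSFM, Krt8, Krt18 and Krt19, passed the filter only through the DKSFM libraries, and the list median of 2.53 is the value of Krt19, which depends on the 0.1 added before the logarithm. Krt7, the most abundant, had a log2 fold change of -1.54 and Epcam of -1.50, close to the -1.61 of Dsc2, whereas Krt8 went from 0.153 or less to between 64.7 and 70.4. The summed coverage was 1123, 1144 and 1267 in KSFM-Ca2+ and 507, 493 and 494 in DKSFM. Its part in the Dsg2 and Dsc2 values was not tested.

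Markers of other skin cells were low throughout. A single gene of each list passed the filter, and their log2 fold changes were 0.95 for Pdgfra of 7 fibroblast genes, -0.66 for Pmel of 5 melanocyte genes and 1.42 for Pecam1 of 4 endothelial genes. Cd74, of 5 immune cell genes, was listed between 1.5 and 1.6 in KSFM-Ca2+ and at 0 in DKSFM. Pecam1 was called higher in DKSFM, and Cd74 was tested only through the KSFM-Ca2+ libraries. Summed coverage was at most 2.34 for fibroblast genes, 0.886 for melanocyte genes, 8.30 for endothelial genes and 2.0 for immune cell genes in any library, beside at least 711 for the desmosomal cadherins.

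**Figure D5:**
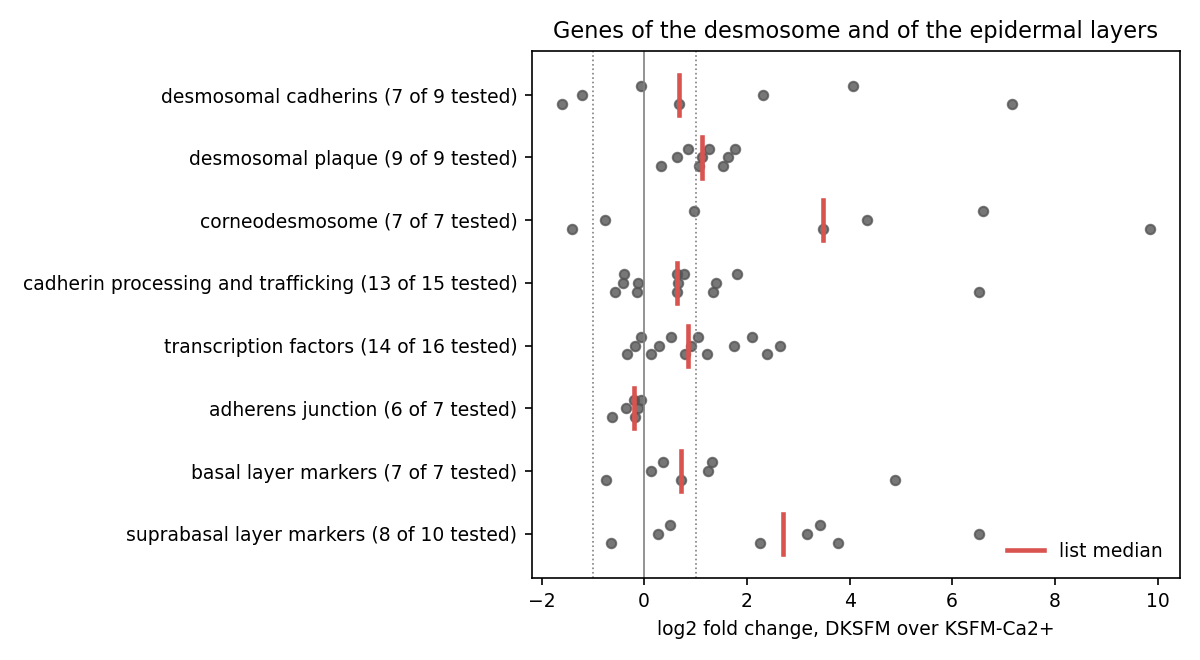
Log2 fold change (DKSFM over KSFM-Ca2+) of each tested gene in 8 lists, with 1 point per gene, a red bar at the list median and dotted lines at 2-fold. Genes listed at or near 0 in KSFM-Ca2+ have values that depend on the 0.1 added before the logarithm. The plaque genes lie to the right of 0 and the adherens junction genes to the left, with medians of 1.13 and -0.19, and the desmosomal cadherins spread over both sides.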

How the data were processed

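RNA from 3 KSFM-Ca2+ and 3 DKSFM libraries was sequenced. The authors deposited the mean read coverage per base of each gene, written to 1 decimal, after bcl2fastq and STAR per the submitters' processing notes, which also name DESeq2 and the mm10 build. The study's methods add Salmon for quantification and name BaseSpace apps, with app versions, for alignment and differential expression. Separate versions of STAR and Salmon and how coverage was computed are not given in the sources used here. These are not counts, so a count model was not used. At typical transcript lengths 1 step of 0.1 stands for about 3.67 to 6.69 reads of 85 bases, which limits precision for Dsg1a, Dsg1b, Dsg1c, Dsg2 and Dsc1. Coverage was scaled by trimmed means of log ratios without weights (30% trimmed by ratio and 5% by level, factors 0.991 to 1.01 before library totals). Genes with normalized coverage of 0.5 in 3 libraries were kept, and log2(value + 0.1) was fitted with limma 3.58.1 and an intensity trend in R 4.3.3, with Benjamini-Hochberg adjustment over 12450 genes. Fold changes are on that scale, which understates changes of low genes. The procedure was tested on simulated data. Figures used Python 3.11.15 and matplotlib 3.10.9.

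Named genes were the 9 members, all plaque genes, the most abundant and most changed called genes of the other lists (adherens junction, corneodesmosome, processing and trafficking, transcription factors and cell type markers) and those whose role is described, and the 2 closest profiles of each tested member. Genes named beyond this rule, such as Epcam and Klk5, were picked with their values in view. The members and lists were chosen with earlier results of these data known. The study also names Krt1, Krt8, Krt10, Krt14, Krt15, Krt18, Krt19, Lor, Cdh1, Itga6 and Trp63 from its own measurements of these lines. These genes are not independent evidence of a direction either. Alternatives covered scaling, filter, added constant, variance model, test, threshold, replicate block, single libraries and the libraries marked as combined. Within a line the lowest correlation between libraries across genes was 0.992, and no libraries were identical. Gene positions came from RefSeq and transcript sequences from GENCODE. Isoforms were not analysed here.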

Additional observations from a re-analysis of the deposited data

How the results depend on the processing

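Of 239 values recomputed under alternatives, 223 kept their direction and their side of the adjusted p threshold, whatever their fold, or stayed within 1.5 times for counts and within 1 SD for the balance, and 16 did not. Genes called higher in DKSFM numbered 1655, against 1035 with the filter required in every library and 1070 when tested against a 2-fold change. Against a 2-fold change, genes higher in KSFM-Ca2+ went from 1303 to 781. Under quantile normalization 1461 genes were called higher in DKSFM and 1486 higher in KSFM-Ca2+, so the larger count changed sides. The filter in every library left 0 cadherins called higher in DKSFM, since it removes genes near 0 in KSFM-Ca2+. With no filter 4 cadherins were called higher in DKSFM. The added gene was Dsg1c (log2 fold change 1.03, limma adjusted p = 0.00703), whose value depends on the 0.1 added before the logarithm. Cadherins called higher in KSFM-Ca2+ went from 2 to 1 with 0.5 added, with 1 added, against a 2-fold change and in the combined libraries alone, and the gene lost was Dsg2. Against a 2-fold change 4 plaque genes passed, Dsg2 (log2 fold change -1.22) had a limma adjusted p of 0.472 and Dsc3 (0.67) of 1, since that test asks for more than 2-fold. In the combined libraries, with KSFM-Ca2+ replicate 3 as the lone library of its line and assumed to vary like the others, Dsg2 was at -1.15 (limma adjusted p = 0.0117), Dsc1 at 2.19 (0.0143) and Dsg3 at 0.045, opposite in sign as under quantile normalization (0.011). Fewer libraries were fitted there. With Dsc1 alone the balance changed by -2.25 rather than -5.69. Other scalings moved the median log2 fold change of all genes to between -0.05 and 0.01.

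With single libraries left out, the Dsg3 log2 fold change ranged from -0.10 to -0.01, that of Dsg2 from -1.31 to -1.14, that of Dsc1 from 2.06 to 2.48 and the balance from -5.87 to -5.50, and no cadherin call changed. Replicate numbers did not pair the libraries. For each gene the mean of the line was subtracted from the log2 values. The deviations left in same-numbered libraries had correlations of -0.01, 0.02 and -0.02 across genes. With a replicate block 1658 genes were called higher in DKSFM and 1301 higher in KSFM-Ca2+, and the block changed no cadherin call. Values of Dsg1a, Dsg1c, Dsc1 and Dsg2 rest on few steps of 0.1.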

Other observations

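Genes known to process or move desmosomal cadherins changed in both directions. Of 15 such genes 13 were tested and 8 passed the limma threshold toward DKSFM and 3 toward KSFM-Ca2+, against 35.6% and 36.8% of all tested genes, with a median log2 fold change of 0.65 beside 0.00 over all tested genes. The 4 called genes, all higher in DKSFM where 13.3% of all tested genes were called, were Egfr, Cav1, Flot1 and Flot2, and Flot2 passed the filter only through the DKSFM libraries. Cav1, a caveolar coat protein and the most abundant of the list, was at 477 ± 14.8 in KSFM-Ca2+ and 1257 ± 39.8 in DKSFM (SD, n = 3 each). Flot2, a membrane raft protein, was at 0.230, 0.394 and 0.589 in KSFM-Ca2+ and at 40.4, 45.8 and 46.4 in DKSFM, the largest change of the list (log2 fold change 6.52, limma adjusted p = 7.45e-08). Flot1 had a log2 fold change of 1.80 and is among the genes the study chose on these samples. The ectodomain proteases Adam10 and Adam17 had log2 fold changes of 0.65 and 0.67, and Adam9 of -0.57.

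Of 16 transcription factors 14 were tested, 6 were called higher in DKSFM and none higher in KSFM-Ca2+, against 13.3% and 10.5% of all tested genes. Their median log2 fold change was 0.86. The list also held Snai1, Snai2 and Zeb1. Snai2 was among the 6 called (log2 fold change 1.04, limma adjusted p = 1.67e-07), and Snai1 and Zeb1 were not tested. At any fold 11 passed the limma threshold toward DKSFM and 2 toward KSFM-Ca2+, against 35.6% and 36.8%. Cebpa had the largest change, from 81.5 ± 5.68 to 510.2 ± 18.2 (SD, n = 3 each; log2 fold change 2.65, limma adjusted p = 3.34e-09). Grhl1, known as an activator of Dsg1, rose from 20.0 ± 1.49 to 85.7 ± 2.44 (SD, n = 3 each; log2 fold change 2.10, limma adjusted p = 1.69e-08) and is also among the genes the study chose on these samples. Cebpb, with the highest mean of the list in KSFM-Ca2+, was at 439 ± 36.0 there and at 419.7 ± 35.8 in DKSFM, and Trp63, the basal keratinocyte factor, had a log2 fold change of 0.13. Any link between these factors and the cadherin values was not tested.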
